A study of Homo sapiens with 50 samples.

Results

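ZNF genes encode proteins with zinc fingers, small folds in which a zinc ion is held by cysteine and histidine side chains. The set described here comprised the 181 genes of the authors' list of paused genes in DLD-1 cells, out of 6481 entries, that matched a protein-coding RefSeq gene with a symbol of ZNF followed by digits only. DLD-1 is a human colorectal adenocarcinoma line. The series bears on SPT6, a histone chaperone that travels with transcribing RNA polymerase II (Pol II), and on paused Pol II. Its 50 libraries, in 32 groups, were of chromatin immunoprecipitations and 1 input. They came from cells expressing the plant protein OsTIR1, either parental or with an auxin-inducible degron on SPT6, on PAF1, on SPT6 and PAF1 or on SPT6 and NELF-C, given vehicle for 2 h or 500 µM auxin for 0, 2 or 6 h. No library value enters the measurements below, which concern listed positions only, 1 pause site per gene and no replicate.

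Most ZNF proteins carry arrays of C2H2 fingers, each of which contacts a few bases of DNA. Many also carry a KRAB domain, which binds the corepressor TRIM28, and TRIM28 in turn brings in the histone methyltransferase SETDB1 and HP1 proteins to form heterochromatin, often over transposable elements. The family grew by tandem duplication, above all on chromosome 19, so that neighbours in a cluster are often close relatives. Paused Pol II halts shortly after the start of a gene until it is released into elongation. The pause distance given here is the number of bp from the listed 5' end of a gene to the listed site, counted in the direction of transcription. Whether the listed site or the base after it is the paused base is not stated in the sources used here, and in the second case every distance would be 1 bp longer.

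The letters around a few pause sites show what the sites share. Each stretch holds 10 bases before the listed site, the site and 10 bases after it, 5' to 3' on the gene's strand, from RefSeq (GRCh38.p14, the coordinates of hg38). Capitals mark the listed site and the base after it. From chromosome 19 the members with the smallest distance, the quartiles and the largest distance among those with readable bases are shown.
ZNF579 (chr19:55580831-55580851, minus strand, site at 7 bp): accaccgtccGCgtttggccg
ZNF627 (chr19:11597499-11597519, plus strand, site at 26 bp): cccacccgggCTcgcgtctcc
ZNF358 (chr19:7516061-7516081, plus strand, site at 39 bp): aactacaagtCCcagcagctc
ZNF230 (chr19:44003010-44003030, plus strand, site at 63 bp): ggcgggtcctTCtgaacttgt
ZNF888 (chr19:52923130-52923150, minus strand, site at 288 bp): tatacagtttGTatcgcgtag
The same ranks among members on other chromosomes gave a second set.
ZNF24 (chr18:35344404-35344424, minus strand, site at 6 bp): cggcgtttctGCgtctgccgt
ZNF23 (chr16:71462181-71462201, minus strand, site at 32 bp): agggctccggGCgctgtgtgc
ZNF638 (chr2:71331811-71331831, plus strand, site at 47 bp): tggaggctgaGTgctaaactg
ZNF25 (chr10:37976552-37976572, minus strand, site at 65 bp): gggctgggccGCaaagggcgg
ZNF516 (chr18:76495455-76495475, minus strand, site at 203 bp): acagggcagaCCatttccagg
In 7 of these 10 stretches the base after the listed site is a cytosine, and in the other 3 (ZNF627, ZNF888 and ZNF638) it is a thymine. The sites of ZNF24 and ZNF888 lay 6 bp and 288 bp from their starts.

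Sequence could be read for the sites of 46 of the 181 members. In these the site and 10 bases on each side lay inside a RefSeq promoter window (250 bases before to 50 after an annotated start). The base after the listed site was cytosine in 35 of the 46 (76.1%), thymine in 7 (15.2%), adenine in 4 (8.70%) and guanine in 0. In the other entries with readable sites it was cytosine in 1194 of 1387 (86.1%), thymine in 65 (4.69%), adenine in 124 (8.94%) and guanine in 4. The site itself was guanine in 20 of the 46 members (43.5%) and in 47.8% of the others, and the base after the cytosine position was guanine in 25 members (54.3%) and 55.7% of the others. The members with another base than cytosine were ZNF148, ZNF407, ZNF426 and ZNF792 with adenine, and ZNF267, ZNF445, ZNF566, ZNF622, ZNF627, ZNF638 and ZNF888 with thymine. They were named after their values were seen.

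Cytosine followed the site in 16 of 20 plus strand members (80%) and 19 of 26 minus strand members (73.1%), and on chromosome 19 in 14 of 19 (73.7%) against 21 of 27 elsewhere (77.8%). Readable sites lay nearer the start than the rest. The windows end 50 bases after a start and had to hold 10 bases beyond the site. The readable sites had a median distance of 46 bp among members and 38 bp among other entries. Among sites at 20 to 49 bp cytosine followed in 13 of 18 members (72.2%) and 87.8% of other entries. The listed 5' ends were checked in the same way. The base before the start and the first base were CA, the commonest pair at mammalian start sites, in 66 of the 130 members with readable starts (50.8%) and in 51.9% of 4281 other entries, and a pyrimidine followed by a purine in 90.0% and 86.5%.

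**Figure D1:**
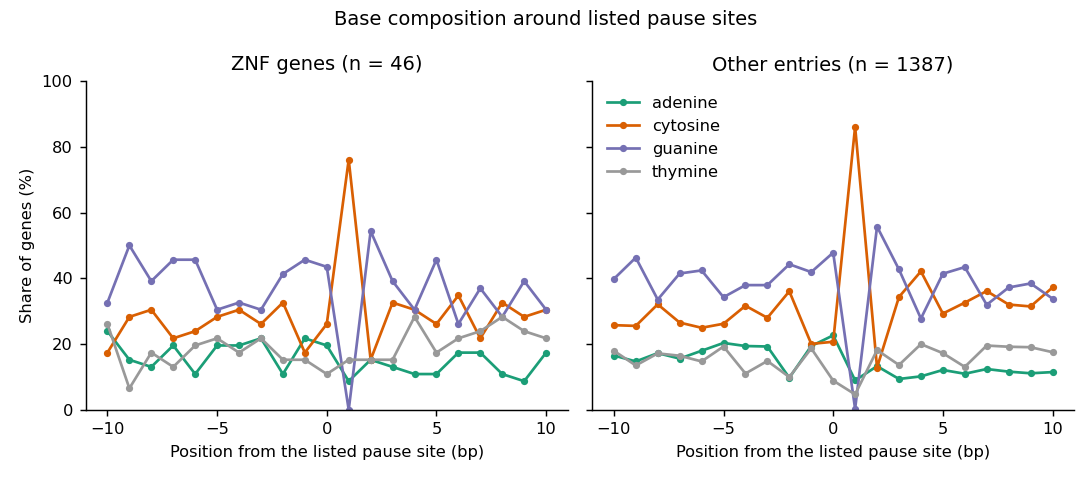
Share of genes (%) with each base at the 10 positions before and after the listed pause site (position 0), for 46 ZNF genes on the left and 1387 other entries on the right. Cytosine stood at position 1 in 76.1% of the ZNF genes and 86.1% of the other entries, while no base exceeded 60% at any other position.

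The ZNF genes in the list were 181 of the 477 such genes in RefSeq (37.9%), beside 29.1% of all 20037 protein-coding genes (5822 named entries). No test was run on this or on any other share or median here, because genes of one family share sequence and neighbourhood and the members are not replicates. Chromosome 19 held 240 of the 477, of which 72 were listed (30.0%). Elsewhere 109 of 237 were listed (46.0%). Other protein-coding genes of chromosome 19 were listed in 23% of cases (279 of 1211).

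A cluster was taken as a run of at least 3 annotated ZNF genes with gaps of up to 100 kb, counting symbols that end in a letter. Of the 181 members, 61 lay in chromosome 19 clusters, 11 on chromosome 19 outside them, 37 in clusters on other chromosomes and 72 elsewhere outside clusters. The listed shares of these classes were 29% (61 of 210), 36.7% (11 of 30), 46.3% (37 of 80) and 45.9% (72 of 157). Chromosome 19 clusters were thus listed at the share of all protein-coding genes, and the other members above it.

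Within chromosome 19 the listed genes were spread unevenly over the 18 clusters. The cluster from ZNF264 to ZNF446 near the long arm's end (chr19:57191500-58489533) had 19 of 41 genes in the list, and that from ZNF283 to ZNF180 (chr19:43827321-44500522) had 11 of 20. The cluster from ZNF554 to ZNF77 had 4 of 5 and that from ZNF699 to ZNF846 had 6 of 10. By contrast 6 clusters, with 40 genes, had none. They included the 4 neighbouring clusters from ZNF85 to ZNF91 with 22 genes, among them ZNF91 itself, which represses SVA transposons. The cluster from ZNF577 to ZNF816 had 4 of 27, and that from ZNF566 to ZNF573 had 3 of 22. Of the 19 clusters on other chromosomes, 3 had no listed gene, and the cluster of 6 genes from ZNF786 to ZNF783 on chromosome 7 was listed whole, as were the 3 genes from ZNF619 to ZNF621 on chromosome 3.

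**Figure D2:**
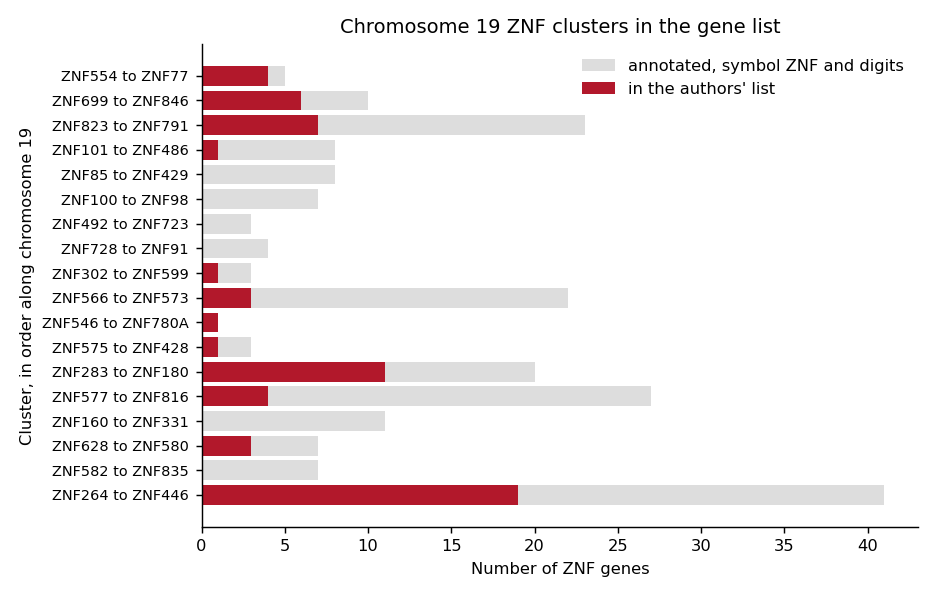
Number of annotated ZNF genes (grey, symbol of ZNF and digits) and of those in the authors' list (red) in each of the 18 chromosome 19 clusters, in order along the chromosome and named by their first and last gene. The last cluster has 19 of 41 genes in the list, and 6 clusters have none.

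Among ZNF genes of at least 3005 bp, the length of the shortest entry, 22 of 136 with another protein-coding gene overlapping or within 1000 bp were listed (16.2%), against 159 of 337 without one (47.2%). In all protein-coding genes of that length the shares were 16.8% with a neighbour and 42.0% without, so the same split ran through the whole annotation. For chromosome 19 clusters the shares were 11.8% with a neighbour (6 of 51) and 34.8% without (55 of 158). Other protein-coding genes of chromosome 19 had 14.6% and 36.1%, close to those of the clusters. Elsewhere outside clusters 64 of 106 genes without a neighbour were listed (60.4%), and in clusters elsewhere 31 of 53 (58.5%). On chromosome 19 outside clusters the count was 9 of 20 (45%). Of the 296 ZNF genes not listed, 4 were shorter than 3005 bp, 32 others overlapped an entry that received no name, 98 others had a protein-coding neighbour and 162 had neither. Absence from the list does not show that a gene lacks a pause site.

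Of 27 ZNF genes with a well known role, 15 were listed, beside 37.9% of all ZNF genes and 29.1% of all protein-coding genes. ZNF274, a KRAB protein that binds the finger-coding exons of other ZNF genes and brings in SETDB1, was listed (ENSG00000171606.18, chromosome 19, plus strand, 5' end 58183424) with its site at 58183477, 53 bp downstream. The 12 not listed were ZNF10, ZNF91, ZNF93, ZNF217, ZNF263, ZNF335, ZNF410, ZNF532, ZNF598, ZNF687, ZNF711 and ZNF750, of which 7 had a protein-coding neighbour within 1000 bp. ZNF93, a repressor of LINE-1 elements, and ZNF598, which marks collided ribosomes with ubiquitin, were among the 5 without one. An unnamed entry overlapped ZNF263.

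Pause sites of the 181 members lay a median of 57 bp from the listed 5' end, with quartiles of 37 and 97 bp and a range of 3 to 295 bp. In the 6300 other entries the median was 52 bp and the quartiles were 38 and 82 bp. The lower quartiles thus differed by 1 bp and the upper ones by more. At 30 to 49 bp, the band with the sites of 33.2% of the other entries, stood 38 members (21%). Members were at 50 to 99 bp in 70 cases (38.7%; others 34.6%), beyond 100 bp in 42 (23.2%; others 18.5%) and under 20 bp in 19 (10.5%; others 6.98%). Sites at 200 bp or more were held by 10 members (5.52%) and 5.32% of the others.

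Clusters on other chromosomes had the largest median. The median distance was 58 bp in chromosome 19 clusters (quartiles 37 and 97 bp) and 69 bp in clusters elsewhere (49 and 126 bp). It was 53.5 bp in members elsewhere outside clusters (quartiles 34 and 90.8 bp) and 55 bp in the 11 members of chromosome 19 outside clusters. The band of 30 to 49 bp held 13 of 61 members in chromosome 19 clusters (21.3%), 5 of 37 in clusters elsewhere (13.5%) and 18 of 72 elsewhere outside clusters (25%). Beyond 100 bp the counts were 14 of 61 (23%), 13 of 37 (35.1%) and 15 of 72 (20.8%), while the 11 members of chromosome 19 outside clusters ran from 12 bp for ZNF574 to 96 bp for ZNF787. By chromosome alone the medians were nearly equal, 56.5 bp on chromosome 19 and 57 bp elsewhere. The 305 other entries of chromosome 19 had a median of 47 bp, with 36.4% at 30 to 49 bp. The quartile ranges of all these classes overlapped.

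**Figure D3:**
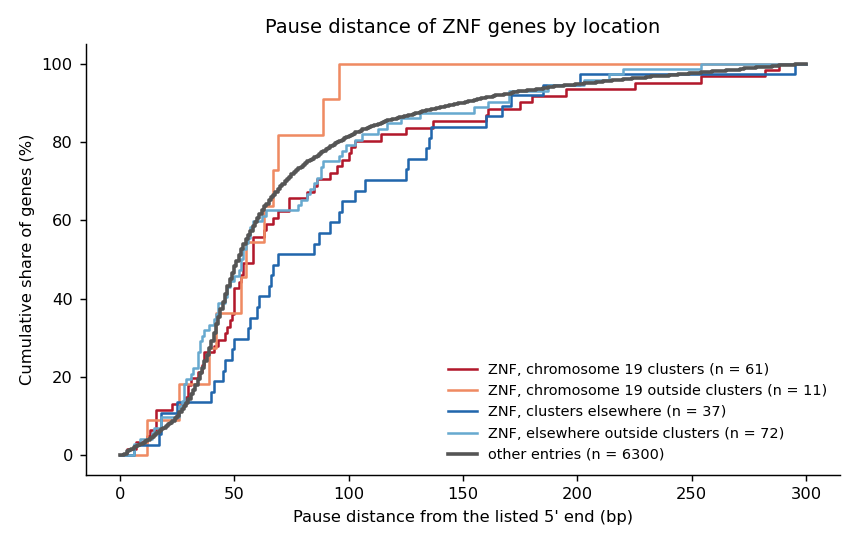
Cumulative share of genes (%) by pause distance (bp) for the 4 location classes of ZNF genes and for all 6300 other entries. The line of ZNF genes in clusters elsewhere lies to the right of the others at its quartiles and median but not at both ends, with a median of 69 bp against 52 bp in other entries.

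The distance is counted from the listed start, which was therefore set beside the outermost RefSeq start. Both were within 10 bp of each other in 70 members (38.7%; other named entries 40.0%). The listed start was farther inside the gene in 109 (60.2%; 53.0%), and outside it by over 10 bp in ZNF281 and ZNF792 (1.10%; 7.04%). Among the 70 members with both starts within 10 bp the median distance was 62.5 bp, beside 51 bp in 2255 other entries chosen in the same way. In this subset 16 members stood at 30 to 49 bp (22.9%; others 38.2%). The medians were 63.5 bp for 24 members in chromosome 19 clusters, 87 bp for 15 in clusters elsewhere and 48.5 bp for 26 elsewhere outside clusters. None of the 15 in clusters elsewhere stood at 30 to 49 bp, and 10 of the 26 elsewhere outside clusters did (38.5%). The 5 members of chromosome 19 outside clusters had a median of 63 bp, with 1 at 30 to 49 bp.

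At the low end in chromosome 19 clusters stood ZNF700 at 3 bp, ZNF579 at 7 bp, ZNF440 at 12 bp, ZNF805 at 13 bp and ZNF234 at 16 bp, with ZNF555 also at 16 bp. The listed start of ZNF700 lay 42 bp downstream of the RefSeq start and that of ZNF805 75 bp, whereas for ZNF579 both were the same base. In the middle were ZNF799 at 54 bp and ZNF426 and ZNF566 at 58 bp. The largest distances were those of ZNF587 (195 bp), ZNF865 (225 bp), ZNF101 (254 bp), ZNF180 (282 bp) and ZNF888 (288 bp). For ZNF587, ZNF865 and ZNF888 the listed start was the outermost RefSeq start, and for ZNF180 it lay 2 bp downstream. For ZNF101 it lay 686 bp downstream, on another annotated RefSeq start. ZNF888 (ENSG00000213793.6, chromosome 19, minus strand, 5' end 52923428) paused at 52923140. The nearest members of its cluster on either side, ZNF611 and ZNF816, stood at 41 and 58 bp.

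On other chromosomes the smallest distances were 6 bp for ZNF24, ZNF343 and ZNF697, 9 bp for ZNF337 and 14 bp for ZNF696. The middle held ZNF592, whose protein works with ZMYND8 and ZNF687, and ZNF76, a relative of ZNF143, at 57 bp, and ZNF281, a transcription factor of stem cells, at 58 bp. ZNF516 (203 bp), ZNF644 (214 bp), ZNF623 (220 bp), ZNF384 (254 bp) and ZNF747 (295 bp) had the largest. ZNF644 partners the histone methyltransferases G9a and GLP, and ZNF384 is a transcription factor known as a fusion partner in leukaemia.

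The remaining members with well known roles fell between these ends. ZNF143, an activator bound at many promoters (ENSG00000166478.10, chromosome 11, plus strand, 5' end 9461113), paused at 9461131, 18 bp downstream, from a listed start 101 bp inside the RefSeq gene. ZNF622, a factor of ribosome assembly, stood at 28 bp, and ZNF207, which acts at kinetochores in mitosis, at 34 bp. ZNF451, a SUMO ligase, was at 42 bp and ZNF638, which takes part in silencing of unintegrated retroviral DNA, at 47 bp. ZNF445, a KRAB protein that maintains imprints, was at 57 bp. ZNF148, a factor that binds GC-rich sites, stood at 79 bp and ZNF326, which belongs to a complex linking Pol II elongation with splicing, at 85 bp.

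Pause distances were also compared within clusters. In the cluster from ZNF264 to ZNF446, the 19 listed genes ran from 13 bp for ZNF805 to 195 bp for ZNF587 around a median of 82 bp. In that from ZNF283 to ZNF180, the 11 listed genes had a median of 47 bp, and ZNF284, ZNF224 and ZNF225, which follow each other on the plus strand, stood at 29, 30 and 50 bp, while ZNF227 stood at 114 bp. The cluster from ZNF699 to ZNF846 was tighter at its core: ZNF121 and ZNF561 were both at 50 bp, ZNF562 at 54 bp and ZNF426 at 58 bp, with ZNF266 at 74 bp and ZNF699 at 180 bp. On chromosome 16, ZNF764, ZNF689 and ZNF747 stood at 167, 185 and 295 bp, all beyond 100 bp. ZNF785, in the cluster of these 3 or the other one on chromosome 16, was named only under the coverage rule given at the end. Its site stood at 48 bp, so the 3 may not stand for every listed gene of their cluster. On chromosome 3, ZNF619 and ZNF620 were at 160 and 201 bp and ZNF621 at 60 bp.

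Over the 70 pairs of successive listed members within a cluster, the 2 distances differed by a median of 32 bp, from 0 to 247 bp, and by up to 10 bp in 15 pairs. Of the 70 pairs 49 were in tandem (median difference 31 bp), 11 faced each other tail to tail (11 bp) and 10 head to head (76.5 bp). On chromosome 19 the 49 pairs differed by a median of 20 bp. Such differences were not computed for pairs of other entries or for members of different clusters, so these values have no background. A link with orientation was not tested. ZNF579 and ZNF865, a head-to-head pair with 24798 bp between them, stood at 7 and 225 bp.

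**Figure D4:**
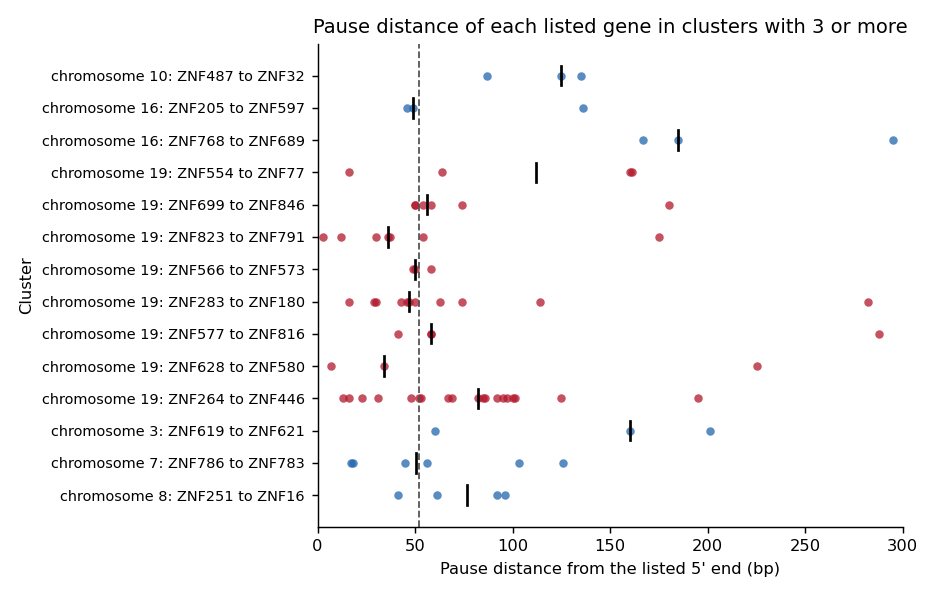
Pause distance (bp) of each listed ZNF gene in the 14 clusters with 3 or more listed genes, red for chromosome 19 and blue elsewhere, with the median of each cluster as a black bar and that of all other entries (52 bp) as a dashed line. Most clusters hold genes on both sides of the dashed line. The 3 members shown for the chromosome 16 cluster from ZNF768 to ZNF689 all lie beyond 100 bp. Genes named only under the coverage rule given at the end, such as ZNF785, are not shown.

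The members were shorter than the rest of the list. Their median listed length was 18644 bp (quartiles 11623 and 30139 bp), beside 36646 bp in other entries (16092 and 82087 bp). In chromosome 19 clusters it was 15426 bp, with none above 44443 bp (ZNF566), and 27185 bp elsewhere outside clusters. Other entries of chromosome 19 had a median of 15496 bp, as short as the members there. The shortest members were ZNF784 (3826 bp), ZNF579 (4075 bp) and ZNF703 (4237 bp), with sites at 34, 7 and 34 bp. The longest were ZNF609 (225497 bp), ZNF704 (245989 bp) and ZNF407 (467802 bp), at 56, 15 and 31 bp. Across the 181 members Spearman's rho between length and distance was -0.10, a weak relation over genes that are not independent.

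A RefSeq promoter window was found for 155 members, on the listed strand in all 155, and the nearest window to the listed start was used. Their GC content had a median of 63.0% (quartiles 58.7 and 68.0%), beside 67.7% in 4654 other entries (61.3 and 73.7%). It was 61.3% in chromosome 19 clusters and 67.7% in other entries of chromosome 19. The ratio of observed to expected CpG had a median of 0.807 in members and 0.874 in other entries. GC content had a Spearman's rho of 0.03 with pause distance over the 155 members.

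Motifs were searched as exact letters on both strands, and 1 window may hold several that overlap. CGGAAG, the core read by ETS factors, was in 80 of 155 member windows (51.6%), beside 33.6% of the windows of other entries and 19.5% of all 35116 windows of the table. Its share was 59.6% in chromosome 19 clusters (34 of 57), 56.7% in clusters elsewhere (17 of 30) and 44.8% elsewhere outside clusters (26 of 58). On chromosome 19 outside clusters it was 30% (3 of 10), below the share of other entries. Other entries of chromosome 19 had it in 34.9%. Where the listed start was the window's start base, the shares were 51.1% of 47 members and 32.9% of 1461 others. CCAAT, the box of NF-Y, was in 47.1% of member windows (others 36.1%, all windows 34.6%). ACTACAA, part of the motif of ZNF143, was in 15 (9.68%; others 3.65%, all windows 2.77%), among them the windows of ZNF121, ZNF180, ZNF227, ZNF358 and ZNF451.

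Upstream stretches of members that hold the ETS core show its setting. These are the 100 bases before the listed start, 5' to 3' on the gene's strand, for members whose listed start was also the RefSeq start and whose ETS core lies within these 100 bases. Of these members the 3 with the smallest distances are given from chromosome 19 clusters and then the 3 from other chromosomes. Capitals mark CGGAAG or its reverse complement.
ZNF121 (chr19:9584505-9584604, minus strand, site at 50 bp): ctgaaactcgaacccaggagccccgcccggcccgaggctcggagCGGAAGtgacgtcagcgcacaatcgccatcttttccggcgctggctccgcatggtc
ZNF230 (chr19:44002857-44002956, plus strand, site at 63 bp): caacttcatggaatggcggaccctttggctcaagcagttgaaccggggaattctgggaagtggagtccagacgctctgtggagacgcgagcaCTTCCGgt
ZNF45 (chr19:43935283-43935382, minus strand, site at 74 bp): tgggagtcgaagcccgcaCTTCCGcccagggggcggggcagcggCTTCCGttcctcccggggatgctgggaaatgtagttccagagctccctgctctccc
ZNF24 (chr18:35344421-35344520, minus strand, site at 6 bp): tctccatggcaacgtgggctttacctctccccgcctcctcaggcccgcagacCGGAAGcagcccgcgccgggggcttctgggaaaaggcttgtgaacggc
ZNF622 (chr5:16465801-16465900, minus strand, site at 28 bp): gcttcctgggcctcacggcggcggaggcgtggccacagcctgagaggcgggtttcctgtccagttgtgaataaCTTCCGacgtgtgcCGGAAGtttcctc
ZNF407 (chr18:74597770-74597869, plus strand, site at 31 bp): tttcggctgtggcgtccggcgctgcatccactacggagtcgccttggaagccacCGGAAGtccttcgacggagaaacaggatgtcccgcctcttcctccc
ZNF45 and ZNF622 carry 2 matches each, and in ZNF230 the match ends 2 bases before the start. On the gene's strand 35 members held CGGAAG and on the opposite strand 58, with 41 and 71 matches. Those matches near the listed start, 40 and 64, lay at medians of 61.5 and 45 bp upstream of it. In other entries 989 and 803 of 4654 held CGGAAG. Their 1122 and 903 matches near the listed start lay at medians of 66 and 72 bp upstream.

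The other motifs stood on either side of the share of other entries. GGGCGG, the GC box, was in 69.7% of member windows (others 78.3%, all windows 45.0%), CACGTG, an E-box, in 7.10% (10.4%, 7.26%) and TATAAA, the TATA box, in 1.94% (4.19%, 11.5%). The 3 members with TATAAA were ZNF169, ZNF589 and ZNF776. GCATGCG, part of the NRF1 motif, was in 7.10% (others 7.11%, all windows 3.91%), with 6 of its 11 members in clusters elsewhere. ATGGCGG, the YY1 core, was in 11% (others 12%, all windows 5.55%), and TGACGTC, part of the cyclic AMP response element, in 15 windows (9.68%; 6.34%, 3.45%), 8 of them in chromosome 19 clusters. Members with the ETS core had a median pause distance of 54 bp and those without it 65 bp, while other entries had 52 bp in both cases. With CCAAT the member median was 65 bp and without it 53.5 bp, beside 53 and 51 bp in other entries. A match is a description of letters, not evidence that a factor binds.

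**Figure D5:**
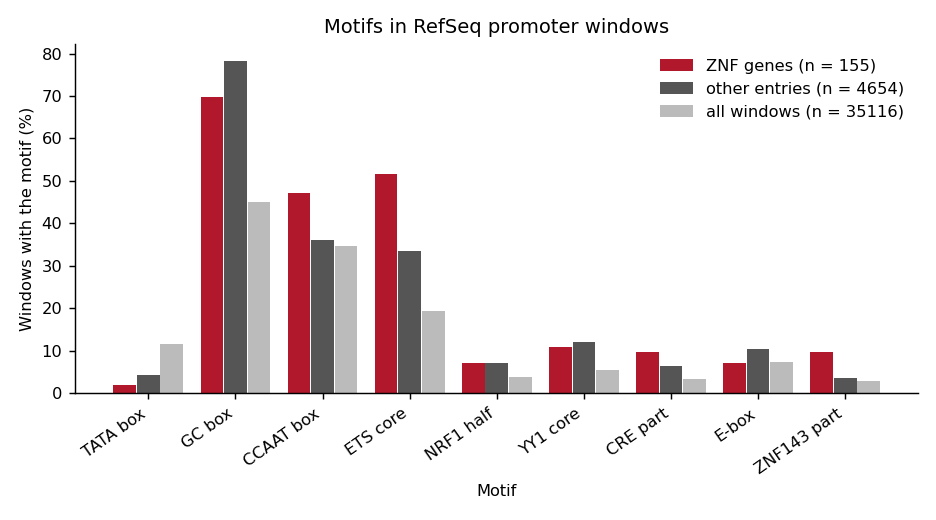
Share (%) of RefSeq promoter windows that hold each of 9 motifs on either strand, for 155 ZNF genes (red), 4654 other entries (dark grey) and all 35116 windows (light grey). The ETS core stands at 51.6% in ZNF genes and 33.6% in other entries, and the GC box at 69.7% and 78.3%.

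The corepressor pathway on which KRAB ZNF proteins act had 15 of 25 genes in the list (60.0%; all protein-coding genes 29.1%), with a median pause distance of 55 bp and a range of 24 to 256 bp. TRIM28, SETDB1, ATF7IP, CBX3, CBX5, CHD3, HDAC1, TASOR, PPHLN1 and EHMT2 were not among the named entries. CBX1, an HP1 gene, stood at 139 bp, CHD4, the remodeller of the NuRD complex, at 46 bp and HDAC2, a deacetylase, at 37 bp. MORC2, which works with the HUSH complex, was at 44 bp and MPHOSPH8, a HUSH subunit, at 119 bp. DNMT1, DNMT3A and DNMT3B, the DNA methyltransferases, were at 55, 47 and 24 bp, and ZMYM2, a zinc finger corepressor, at 256 bp. Beyond 100 bp stood 33.3% of the 15, beside 23.2% of the ZNF members.

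Other families of zinc finger genes gave a wide range of medians, and their listed counts stand beside a share of 29.1% of all protein-coding genes. ZBTB genes, whose proteins join fingers to a BTB domain, had 22 of 42 in the list with a median of 62 bp, and 45.5% of the 22 lay beyond 100 bp. ZSCAN genes had 9 of 21 (56 bp), ZKSCAN genes 5 of 7 (42 bp), ZFP genes 6 of 21 (67 bp) and KLF genes 10 of 18 (47 bp). Of families with other kinds of finger, ZC3H genes, whose fingers often bind RNA, had 10 of 18 (69 bp) and ZDHHC palmitoyltransferases 10 of 24 (46.5 bp). Of the tissue markers, 6 of 10 colon epithelium genes were listed, CDH1, CDX2, EPCAM, KRT18, KRT19 and KRT20, and 0 of 8 fibroblast and 0 of 8 blood markers, again beside 29.1% of all protein-coding genes. Presence in the list is no measure of expression level.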

How the data were processed

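The deposited files are 2 lists for the whole series, of gene intervals and of 1 bp pause sites, as hg38 coordinates in bp, a unit of another kind than counts or signal, per the names the authors gave them and the submitters' processing notes, which name hg38, mm10, cutadapt 1.14, Bowtie2 2.2.6 and deepTools 3.1.1. The sources used here do not state the calling of sites or its samples. They hold no depth, so the precision of each site is unknown.

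Positions were made 1-based and the lists joined by Ensembl identifier. RefSeq (GRCh38.p14) gave names: an entry took the symbol of the only gene with its 3' end within 50 bp that covered at least 50% of the entry, which named 5822 of 6481. Bases came from 35116 RefSeq promoter windows. No window was found for any of the 11 members on chromosome 8, so they enter no value for bases, GC content or motifs. Finger counts and the KRAB pattern, which need proteins, were not analysed here. Members, lists, clusters and motifs were chosen with earlier results of these data known, and no test was run.

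Named genes were, in chromosome 19 clusters and on other chromosomes, the 5 smallest, 3 middle and 5 largest distances, the 3 shortest and 3 longest members and every listed gene of a list of known roles. Naming and base reading were tested on simulated data. The simulated entries kept the RefSeq 3' ends of ZNF genes, so the check does not bear on entries whose 3' ends differ. Python 3.11.15, NumPy 2.4.6, pandas 2.3.3, SciPy 1.17.1 and matplotlib 3.10.9 were used.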

Additional observations from a re-analysis of the deposited data

How the results depend on the processing

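Of 51 recalculations under other choices, 47 stayed inside the 95% interval of the value reported (Wilson for shares, order statistics for medians) or within 1.5 times for a count. The listed share of ZNF genes was 47.2% (others 41.9%) for genes without a protein-coding neighbour, and 44.0% (others 31.8%) when unnamed entries took the only gene covering 80% of them, a choice made after seeing the data. The pause distance was 77.3 bp as a mean (others 70.9 bp) and 50 bp as a median of distances up to 100 bp (others 46 bp). The chromosome 19 cluster median ranged from 54 to 63.5 bp and the ETS core share from 50.6 to 51.6%. The 95% interval of the chromosome 19 cluster median, 50 to 74 bp, includes the 52 bp of other entries. With 3' ends within 10 or 200 bp the members were 180 and 183, so those choices could move the values little. No paired analysis was possible because the lists hold no value for any library, and for the same reason no replicate could be left out. The zinc finger count and the KRAB pattern were not run. The intervals cover variation between genes only and treat the genes as independent, which members of one family are not.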

Other observations

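When unnamed entries took the only gene covering at least 80% of them, 29 ZNF entries were added, which had a median pause distance of 56 bp (quartiles 46 and 90 bp, range 10 to 187 bp) and a median length of 22704 bp. At 30 to 49 bp stood 8 of them (27.6%) and beyond 100 bp 5 (17.2%). ZNF808, of a chromosome 19 cluster, had the smallest distance at 10 bp and ZNF746 on chromosome 7 the largest at 187 bp. ZNF263 stood at 51 bp. The 210 members under that rule had a median of 57 bp. The rule was chosen after the data were seen.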
